A study of Mus musculus with 7 samples.

Results

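Helper T cells that carried Cxcr6 transcript and no Cxcr5 transcript were described among the activated spleen T cells of mice infected with lymphocytic choriomeningitis virus. A cell was a barcode with 500 or more genes and at most 10% mitochondrial UMIs (unique molecular identifiers, 1 per captured transcript). A Th1-gated cell had 1 or more Cd4 UMI, no Cd8a or Cd8b1 UMI, 1 or more Cxcr6 UMI and no Cxcr5 UMI. There were 424 such cells among 9215 cells of the 2 libraries of total activated T cells, and the whole series of 7 libraries held 16427 cells. They made up 277 of the 1492 Cd4+ Cd8- cells of replicate 1 (18.6%, exact 95% binomial interval 16.6 to 20.6%) and 147 of the 563 of replicate 2 (26.1%, 22.5 to 29.9%). The intervals cover counting error only, and those of the 2 libraries did not overlap.

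The gated cells were set against the other Cd4+ Cd8- cells of the same libraries (1215 in replicate 1 and 416 in replicate 2) and against CD8-like cells (3615 and 1087), defined by at least 1 UMI of Cd8a or Cd8b1 without any of Cd4. A subset of the other CD4 cells, the 352 and 130 cells with a Cxcr5 and no Cxcr6 UMI, served as a closer reference. Both libraries came from the spleens of wild type C57BL/6 mice on day 7 after infection with the Armstrong strain. CD44high CD4+ and CD8+ cells were sorted apart and mixed in equal parts before capture. A further reference was the same gate in 2 libraries of CD44high cells bound by the GP66:I-Ab tetramer (viral peptide GP66 on the class II molecule I-Ab), also from spleen on day 7. One was wild type (235 gated cells of 1508 Cd4+ Cd8- cells) and the other carried Ox40-Cre, a recombinase made in activated T cells, with wild type Thpok alleles (184 of 1324).

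Th1 cells are helper T cells that arise in infections with viruses and intracellular bacteria. The cytokine interleukin 12 and interferon gamma lead to expression of the transcription factor T-bet (Tbx21), which in turn drives the interferon gamma gene (Ifng) and genes for migration into inflamed tissue such as Cxcr3. In this infection they form beside follicular helper (Tfh) cells, which carry Cxcr5, stay in B cell follicles and depend on Bcl6.

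The total libraries held 33223809 UMIs in 7022 cells (replicate 1, joined from 3 capture wells) and 12172319 UMIs in 2193 cells (replicate 2). The median Th1-gated cell had 4516 and 6227 UMIs, against 4084 and 4889 in the other CD4 cells and 4182 and 5252 in CD8-like cells. A gate that asks for a UMI selects deeper cells. Shares of cells with a UMI of a gene are therefore given after every cell was thinned to 2000 UMIs, unless stated. The gate itself was applied before thinning, unless stated, so shares of gated cells are not corrected for depth. The 3 wells of replicate 1 gave shares of gated cells of 20.7%, 17.0% and 18.5%. Replicates 1 and 2 shared 24 cell barcodes, where 20.9 were expected by chance. The largest overlap of any pair of wells, 15 barcodes where 6.42 were expected, was between replicate 2 and the Ox40-Cre Thpok wild type tetramer library. The labels do not state how many animals gave a library. The p-values between classes rest on how far the class differences vary between these 2 libraries. Those against the tetramer libraries rest on how far the 2 libraries of each kind differ. Either spread may be technical.

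The gate itself fixed 5 genes, which are given with no test. Levels are counts per 1000000 UMIs of a class in a library (CPM). Cxcr6, the receptor for Cxcl16, stood at 569 and 522 CPM in the Th1-gated cells, against 19.2 and 12.9 CPM in the other CD4 cells and 241 and 285 CPM in CD8-like cells. Barcodes with at most 100 UMIs, which hold free RNA, had 258 and 259 CPM of Cxcr6, and 1 of 25 B cells of replicate 1 (a B cell marker UMI and no Cd3e UMI, median 2720 UMIs) had a Cxcr6 UMI. A Th1-gated cell held a median of 2 Cxcr6 UMIs in replicate 1 and 3 in replicate 2, with at most 13 and 14. Cd4 stood at 298 and 278 CPM in the Th1-gated cells, against 347 and 341 CPM in the other CD4 cells. Cd8a, Cd8b1 and Cxcr5 were 0 in the Th1-gated cells by construction. Of the 4 genes taken as Th1 markers, the other 3 were not used by the gate, and all 3 were higher in the gated cells than in the other CD4 cells of both libraries, so the label Th1 was kept.

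Ifng, the gene of interferon gamma (chr10:118441046-118445892, GRCm38), had 56.1 and 142 CPM in the Th1-gated cells, against 12.9 and 24.8 CPM in the other CD4 cells and 29.4 and 37 CPM in CD8-like cells. Each Th1-gated value lay above both reference values of its own library, and the Th1-gated cells and the other CD4 cells did not overlap. A summed level does not tell more cells with a transcript apart from more transcripts per cell. The difference from the other CD4 cells passed edgeR's quasi-likelihood test with Benjamini-Hochberg adjustment over all tested genes (edgeR log2 fold change 2.35 ± 0.22 (SE), adjusted p = 4.59e-07). Few cells carried it: after thinning, 5.58% and 10.4% of Th1-gated cells had an Ifng UMI, against 2.05% and 3.88% of other CD4 cells. A single cell held 38.1% of the Ifng UMIs of the gated cells in replicate 1 and another 33.6% in replicate 2. Without that cell the level was 34.7 and 94.3 CPM, still above the other CD4 cells of the same library. In the 3 wells of replicate 1 Ifng stood at 19.1, 50.0 and 76.3 CPM in the Th1-gated cells, against 15.1, 9.32 and 13.8 CPM in the other CD4 cells.

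Tbx21, which encodes T-bet (chr11:97098071-97115331), had 72.1 and 79.8 CPM in the Th1-gated cells, against 24.7 and 27.6 CPM in the other CD4 cells (edgeR log2 fold change 1.52 ± 0.15 (SE), adjusted p = 6.65e-07). The groups did not overlap, and within the 3 wells the Th1-gated cells had 79.3, 66.7 and 71.2 CPM, against 39.6, 18.6 and 21.3 CPM in the other CD4 cells. Ccl5, a chemokine that attracts T cells and monocytes (chr11:83525778-83530518), had 5957 and 3635 CPM in the Th1-gated cells, against 1340.2 and 761 CPM in the other CD4 cells (edgeR log2 fold change 2.17 ± 0.069 (SE), adjusted p = 1.38e-13). Ccl5 was also abundant in free RNA: barcodes with at most 100 UMIs held 13925 and 8976 CPM of it, and 59.1% of 22 B cells of replicate 1 (36.4 to 79.3%) had a Ccl5 UMI after thinning. The corresponding share was 82.2% and 68.1% of Th1-gated cells and 47.7% and 37.2% of other CD4 cells. In replicate 1 the Th1-gated cells lay above the interval of the B cells, while the other CD4 cells did not. The B cells were of replicate 1 only, so the shares of replicate 2 have no such reference.

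The 250 bases before the annotated start of the gate gene Cxcr6, the markers Ifng and Tbx21 and the granule gene Gzmb, whose levels are described here, are printed 5′ to 3′ from RefSeq (GRCm38.p6), and the marker Ccl5 is named only. Capitals mark the core TGTGGT bound by Runx factors, read on both strands as TGTGGT or ACCACA.
Cxcr6, chr9:123806227-123806476 (+ strand): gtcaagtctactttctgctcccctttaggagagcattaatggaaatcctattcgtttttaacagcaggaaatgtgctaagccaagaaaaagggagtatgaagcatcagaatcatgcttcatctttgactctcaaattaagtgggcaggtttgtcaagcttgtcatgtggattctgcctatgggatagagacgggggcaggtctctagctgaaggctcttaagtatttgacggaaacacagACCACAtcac
Ifng, chr10:118440796-118441045 (+ strand): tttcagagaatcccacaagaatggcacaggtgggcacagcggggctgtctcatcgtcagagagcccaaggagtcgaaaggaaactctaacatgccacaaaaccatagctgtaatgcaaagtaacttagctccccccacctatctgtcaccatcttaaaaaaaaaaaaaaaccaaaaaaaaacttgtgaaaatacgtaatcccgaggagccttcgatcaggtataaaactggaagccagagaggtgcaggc
Tbx21, chr11:97115332-97115581 (- strand): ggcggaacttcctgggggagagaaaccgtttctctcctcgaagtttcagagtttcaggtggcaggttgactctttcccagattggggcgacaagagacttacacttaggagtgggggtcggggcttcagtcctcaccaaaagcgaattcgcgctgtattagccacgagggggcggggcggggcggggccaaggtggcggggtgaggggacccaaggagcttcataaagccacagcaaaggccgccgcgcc
Gzmb, chr14:56262335-56262584 (- strand): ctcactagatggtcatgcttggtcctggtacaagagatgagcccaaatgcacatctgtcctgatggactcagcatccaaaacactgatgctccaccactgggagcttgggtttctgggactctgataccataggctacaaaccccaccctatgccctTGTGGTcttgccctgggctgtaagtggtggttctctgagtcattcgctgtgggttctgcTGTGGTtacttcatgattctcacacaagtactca
The Runx core occurred 1 time before Cxcr6, 2 times before Gzmb and not in the windows of Ifng and Tbx21. The core bound by T-box factors, GGTGTG or CACACC on the other strand, was in none of the 4 windows. The Runx core was in 11.8% of the promoters of the genes higher in Th1-gated cells, 11.8% of those of the genes lower and 11.1% of those of all tested genes. The T-box core was in 17.1%, 15.7% and 15.1%. Of the 917 genes higher and the 725 genes lower, 704 and 536 had a promoter in the table. A match is a description of letters in this window and not a binding site.

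**Figure D1:**
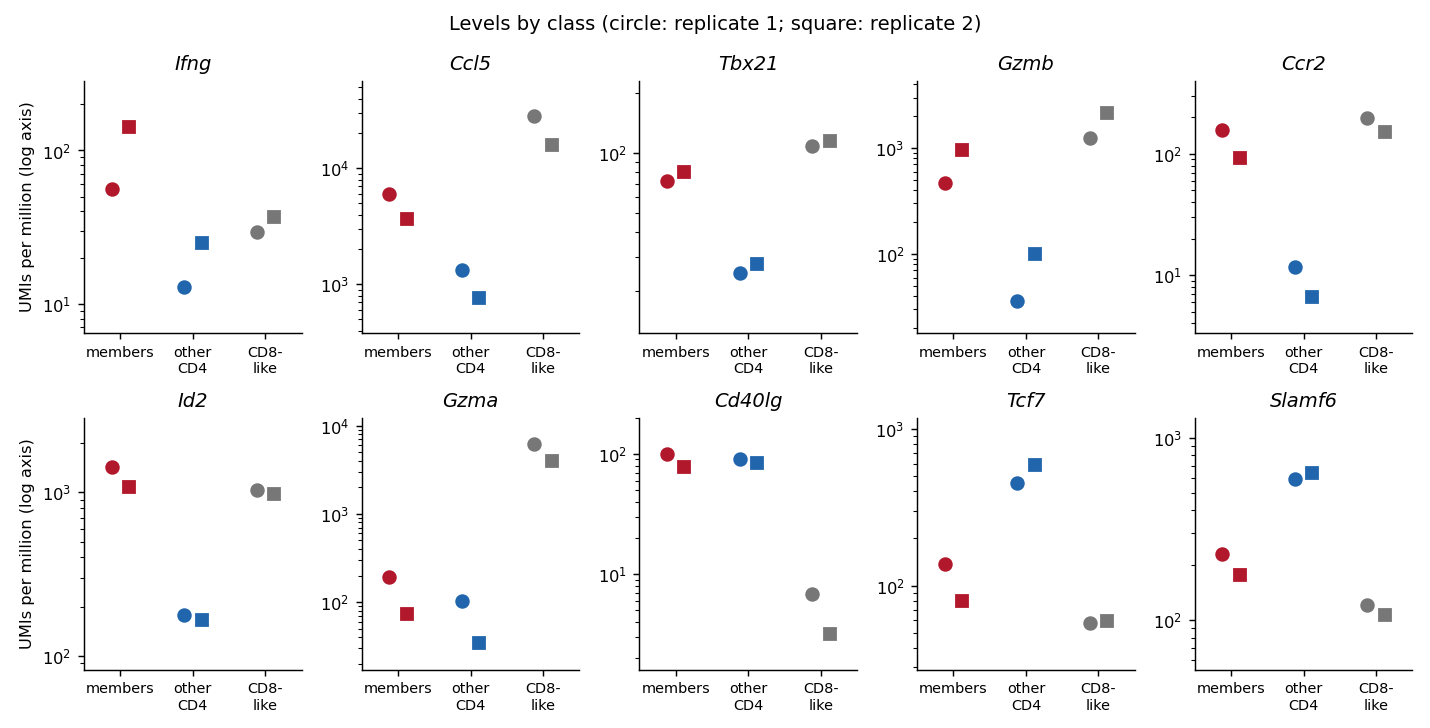
Level in CPM (log axis) of 10 genes in Th1-gated cells (members, red), other CD4 cells (blue) and CD8-like cells (grey), 1 point per library (circle replicate 1, square replicate 2). The red points lie above the blue ones for Ifng, Ccl5, Tbx21, Gzmb, Ccr2 and Id2 and below them for Tcf7 and Slamf6, and for Cd40lg both CD4 classes lie near 100 CPM while CD8-like cells lie below 10.

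Across 9871 tested genes, 917 were higher (9.29%) and 725 lower (7.34%) in the Th1-gated cells than in the other CD4 cells. These calls rest on the library as a block in the fit, since both classes of a library came from the same capture. With no replicate block, 265 were higher and 119 lower. With the gate applied after thinning, 172 were higher and 129 lower. Ccr2, which guides cells along Ccl2, had 156 and 92.2 CPM in the Th1-gated cells, against 11.6 and 6.67 CPM in the other CD4 cells (edgeR log2 fold change 3.70 ± 0.17 (SE), adjusted p = 2.38e-11). AA467197 had 46.1 and 62.2 CPM in the Th1-gated cells, against 2.47 and 3.33 CPM in the other CD4 cells (edgeR log2 fold change 4.19 ± 0.24 (SE), adjusted p = 9.89e-10). Ggt1, a gamma-glutamyl transferase, had 44.1 and 89.1 CPM in the Th1-gated cells, against 4.23 and 11.4 CPM in the other CD4 cells (log2 fold change 3.14). Ifitm1, an interferon-induced membrane protein, was higher within each library, with 182 and 308 CPM in the Th1-gated cells, against 2.12 and 60.5 CPM in the other CD4 cells, although the libraries themselves stood apart (log2 fold change 3.51). The genes 1500009L16Rik and 2210011C24Rik (log2 fold change 3.59 and 3.17) and Sytl2, a regulator of granule release (2.57), were also among the 12 largest.

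**Figure D2:**
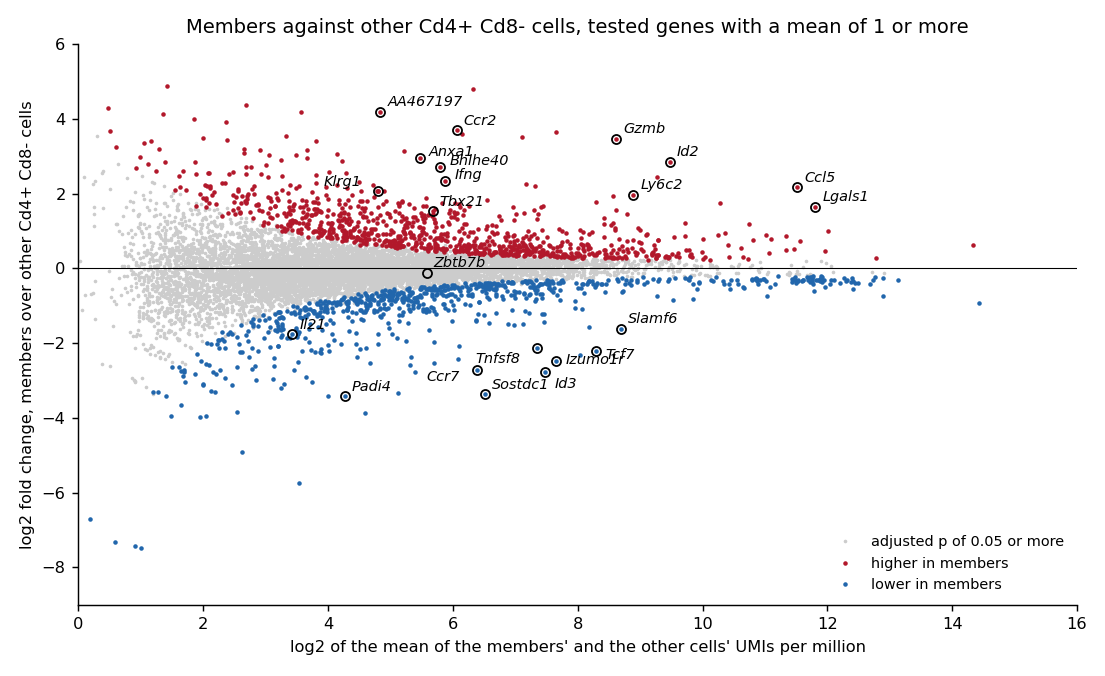
Log2 fold change of Th1-gated cells over other CD4 cells against the log2 of the mean level of the 2 classes, 1 point per tested gene with a mean of at least 1 CPM. Red points were higher and blue points lower in Th1-gated cells at an adjusted p under 0.05. Gzmb, Id2, Ccr2 and Ccl5 stand out above, Sostdc1, Id3 and Ccr7 below, and Zbtb7b lies near 0.

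Among the transcription factors of the Th1 list, 6 of 9 tested genes were higher and none was lower in the Th1-gated cells. The list's median log2 fold change was 1.13, against -0.026 over all tested genes. Id2, an inhibitor of E proteins that opposes the Tfh fate, had 1429 and 1075 CPM in the Th1-gated cells, against 177 and 165 CPM in the other CD4 cells (edgeR log2 fold change 2.85 ± 0.092 (SE), adjusted p = 1.48e-13), and all gated values were above all others. Bhlhe40, a repressor needed for full cytokine output of Th1 cells in mice, had 75.4 and 116 CPM in the Th1-gated cells, against 10.1 and 21 CPM in the other CD4 cells (edgeR log2 fold change 2.72 ± 0.21 (SE), adjusted p = 2.98e-08). Runx3, a partner of T-bet, had 123 and 109 CPM in the Th1-gated cells, against 67.2 and 72.9 CPM in the other CD4 cells (log2 fold change 0.73, edgeR adjusted p = 3.36e-04). Prdm1, which encodes Blimp-1, had 12.7 and 11.4 CPM in the Th1-gated cells, against 4.41 and 5.24 CPM in the other CD4 cells (log2 fold change 1.37, edgeR adjusted p = 0.0121). Zeb2, a factor of terminal effector cells, had 18 and 12.4 CPM in the Th1-gated cells, against 9.52 and 1.90 CPM in the other CD4 cells (log2 fold change 1.13, edgeR adjusted p = 0.035). Stat4, which carries the interleukin 12 signal, and Eomes, a relative of T-bet, were among those that did not pass, with log2 fold changes of -0.18 and 0.15. Without the block 4 of the list's genes were called, and 4 after thinning.

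Several cytokine and chemokine levels rested on few cells, while Ccl5 had a UMI in 254 of 277 and 124 of 147 gated cells before thinning. Of 10 tested genes, 6 were higher (Ifng, Fasl, Ccl3, Ccl4, Ccl5 and Xcl1) and Il21 was lower. Fasl, the ligand of the death receptor Fas, had 20.7 and 17.6 CPM in the Th1-gated cells, against 5.47 and 6.19 CPM in the other CD4 cells (edgeR log2 fold change 1.79 ± 0.30 (SE), adjusted p = 2.92e-04). Xcl1, a chemokine for cross-presenting dendritic cells, had only 11 and 2 UMIs in the gated cells (log2 fold change 2.83, edgeR adjusted p = 0.00782). Ccl3 and Ccl4, inflammatory chemokines, differed between the libraries: Ccl4 had 10.7 and 737 CPM in the Th1-gated cells, against 2.65 and 54.8 CPM in the other CD4 cells. In replicate 2 the 711 Ccl4 UMIs of the gated cells came to 98.6% from 5 cells, and 59.5% of the 299 Ccl3 UMIs from 1 cell. Il2, the T cell growth factor, had 19.4 and 20.7 CPM in the Th1-gated cells, against 14.6 and 15.7 CPM in the other CD4 cells (edgeR adjusted p = 0.403). For Tnf the values were 14.7 and 4.15 CPM in the Th1-gated cells, against 14.6 and 10.00 CPM in the other CD4 cells (edgeR adjusted p = 0.638), and 63.6% of the UMIs of replicate 1 were in 1 gated cell. No Il10 UMI was found in the gated cells of either library. Without the block, 3 genes of the list were called higher and none lower, and after thinning 4 and none.

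Of 12 tested cytokine and chemokine receptors, 9 were higher and none was lower, with a median log2 fold change of 1.32; 10 were higher in both libraries, against 35% of all tested genes. Il12rb2, the inducible chain of the interleukin 12 receptor, had 17.4 and 29 CPM in the Th1-gated cells, against 1.94 and 7.62 CPM in the other CD4 cells (edgeR log2 fold change 2.48 ± 0.35 (SE), adjusted p = 5.18e-05). Il18r1 and Il18rap, the chains of the interleukin 18 receptor, rose by log2 fold changes of 0.85 and 1.38 (edgeR adjusted p = 4.18e-04 and 4.59e-05). Ifngr1, a chain of the interferon gamma receptor, had 236 and 294 CPM in the Th1-gated cells, against 70.0 and 96.7 CPM in the other CD4 cells (log2 fold change 1.66, edgeR adjusted p = 2.65e-09). Cxcr3, another receptor under T-bet in Th1 cells, did not pass, with 270.3 and 341 CPM in the Th1-gated cells, against 277 and 347 CPM in the other CD4 cells (edgeR adjusted p = 0.75). The groups overlapped, and its log2 fold change was -0.06 ± 0.10 (SE). Without the block 5 receptors were called, and 4 after thinning.

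Of 11 tested adhesion and surface genes, 6 were higher (Ly6c2, Selplg, Itgb2, Itgb7, Itga4 and Cd48) and Itgb1 was lower. Ly6c2, a surface protein of effector T cells, had 543 and 959.6 CPM in the Th1-gated cells, against 123 and 267 CPM in the other CD4 cells (edgeR log2 fold change 1.97 ± 0.16 (SE), adjusted p = 4.83e-08), and barcodes with at most 100 UMIs held 1454 and 1429 CPM. Selplg, the selectin ligand PSGL-1, had 673 and 778 CPM in the Th1-gated cells, against 334 and 426 CPM in the other CD4 cells (log2 fold change 0.92, edgeR adjusted p = 7.46e-07). Cd48, a ligand of the receptor CD244, rose by 1.46 on the log2 scale (edgeR adjusted p = 3.83e-10). Cd44, the marker of the sort, had 116 and 108 CPM in the Th1-gated cells, against 97.3 and 95.2 CPM in the other CD4 cells (edgeR adjusted p = 0.336). The list had 3 genes higher and none lower without the block, and 6 and none after thinning.

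Genes of cytotoxic granules and killer receptors were higher in 14 of 16 tested cases, with none lower and a median log2 fold change of 1.63. Gzmb, the serine protease granzyme B (chr14:56258838-56262260), had 473 and 959.6 CPM in the Th1-gated cells, against 36 and 99.99 CPM in the other CD4 cells (edgeR log2 fold change 3.46 ± 0.13 (SE), adjusted p = 8.01e-13), and the groups did not overlap. In barcodes with at most 100 UMIs Gzmb stood at 813 and 1394 CPM. Nkg7, a granule membrane protein, had 1641 and 2183 CPM in the Th1-gated cells, against 423 and 729 CPM in the other CD4 cells (log2 fold change 1.74, edgeR adjusted p = 6.07e-09). Cx3cr1, the fractalkine receptor, had 51.4 and 14.5 CPM in the Th1-gated cells, against 6.52 and 1.90 CPM in the other CD4 cells (log2 fold change 2.87, edgeR adjusted p = 1.10e-06). Klrg1 had 65.4 and 24.9 CPM in the Th1-gated cells, against 14.5 and 6.19 CPM in the other CD4 cells, and Gzmm, another granzyme, 22 and 11.4 CPM in the Th1-gated cells, against 2.65 and 1.90 CPM in the other CD4 cells (log2 fold change 2.06 and 2.89). Prf1, the pore-forming perforin, had 2.67 and 5.18 CPM in the Th1-gated cells, against 1.23 and 3.33 CPM in the other CD4 cells, and did not pass (edgeR adjusted p = 0.373), nor did Srgn, the granule proteoglycan (edgeR adjusted p = 0.594). Without the block 9 genes were called, and 11 after thinning.

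Markers of CD8 effector cells moved with this group. Of 9 such markers, some of them also on the granule list, 7 were higher in the Th1-gated cells. Without the block 2 of them were called, and 3 after thinning. The summed level of the markers was 511 and 229 CPM in the Th1-gated cells and 189.6 and 105 CPM in the other CD4 cells. In CD8-like cells the markers summed to 7913 and 5373 CPM. Gzma, the most abundant of them, had 194 and 72.5 CPM in the Th1-gated cells, against 102 and 34.3 CPM in the other CD4 cells (log2 fold change 0.92, edgeR adjusted p = 7.68e-04), and barcodes with at most 100 UMIs held 2982 and 1747 CPM. The gate leaves out every cell with a Cd8a or Cd8b1 UMI, but a CD8 cell in which neither was captured would pass it if it had a Cd4 UMI, and the part of such cells in these results was not tested. Without the 5% of cells with most UMIs in each well, 879 genes were higher and 646 lower than in the other CD4 cells.

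S100 proteins, annexins and cytoskeletal genes, which mark motile effector cells, were higher in 13 of 14 cases. Lgals1, the lectin galectin-1, had 4787 and 6131 CPM in the Th1-gated cells, against 1454 and 1979 CPM in the other CD4 cells (edgeR log2 fold change 1.65 ± 0.076 (SE), adjusted p = 3.30e-11). Lgals3, or galectin-3, had 769 and 1292 CPM in the Th1-gated cells, against 96.8 and 324 CPM in the other CD4 cells (log2 fold change 2.43, edgeR adjusted p = 2.01e-08), and Anxa1 had 75.4 and 80.8 CPM in the Th1-gated cells, against 8.99 and 11.9 CPM in the other CD4 cells (log2 fold change 2.95, edgeR adjusted p = 2.65e-09). S100a4 and S100a6, calcium-binding proteins, rose by 0.76 and 0.72 on the log2 scale (edgeR adjusted p = 2.46e-06 and 4.13e-07). S100a11 was the gene that did not pass (log2 fold change 0.04). Without the block 5 of the 14 were called, and 12 after thinning.

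Genes of the Tfh programme were lower: 17 of 21 tested genes fell and none rose, with a median log2 fold change of -1.74. The Cxcr5 part of the gate leaves Tfh cells among the other CD4 cells, so part of this contrast is set by the choice of cells. Sostdc1, a secreted antagonist of BMP and Wnt signals, had 25.4 and 4.15 CPM in the Th1-gated cells, against 164 and 170.5 CPM in the other CD4 cells (edgeR log2 fold change -3.36 ± 0.32 (SE), adjusted p = 5.93e-07). Izumo1r, the folate receptor 4, had 84.8 and 40.4 CPM in the Th1-gated cells, against 418 and 265 CPM in the other CD4 cells (edgeR log2 fold change -2.48 ± 0.14 (SE), adjusted p = 3.83e-10). Slamf6, the adhesion receptor Ly108, had 232 and 176 CPM in the Th1-gated cells, against 597 and 644 CPM in the other CD4 cells (edgeR log2 fold change -1.62 ± 0.11 (SE), adjusted p = 7.87e-09). Tnfsf8, the ligand of CD30, had 48.7 and 75.7 CPM in the Th1-gated cells, against 229.8 and 297 CPM in the other CD4 cells (log2 fold change -2.13, edgeR adjusted p = 2.52e-08). Il21, the cytokine of germinal centre help, had 4.01 and 6.22 CPM in the Th1-gated cells, against 16 and 16.7 CPM in the other CD4 cells (log2 fold change -1.76, edgeR adjusted p = 0.00469). Pdcd1, which encodes PD-1, had 67.4 and 123 CPM in the Th1-gated cells, against 192 and 212 CPM in the other CD4 cells (log2 fold change -1.19, edgeR adjusted p = 1.84e-05). The 4 genes that did not pass were Bcl6, Il4, Maf and Cd40lg. Bcl6, the Tfh regulator, had 1.34 and 2.07 CPM in the Th1-gated cells, against 6.52 and 3.81 CPM in the other CD4 cells (edgeR adjusted p = 0.12), and Maf, a regulator of several helper fates, stood at 154 and 149 CPM in the Th1-gated cells, against 201 and 123 CPM in the other CD4 cells. Without the block 10 genes were called, and 7 after thinning.

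Of 14 memory and lymphoid homing genes, 8 were lower and none higher. Ccr7, which holds cells in lymphoid tissue, had 24.7 and 17.6 CPM in the Th1-gated cells, against 128 and 163 CPM in the other CD4 cells (edgeR log2 fold change -2.73 ± 0.18 (SE), adjusted p = 4.62e-09). Id3, the E protein inhibitor of Tfh and memory precursors, had 66.8 and 21.8 CPM in the Th1-gated cells, against 348 and 278 CPM in the other CD4 cells (edgeR log2 fold change -2.78 ± 0.18 (SE), adjusted p = 4.31e-09). Tcf7, which encodes TCF-1, had 137 and 79.8 CPM in the Th1-gated cells, against 451 and 590.4 CPM in the other CD4 cells (edgeR log2 fold change -2.22 ± 0.16 (SE), adjusted p = 2.42e-08), and the groups did not overlap. Bcl2, Lef1, Cd27 and Foxp1 also fell. Il7r, the interleukin 7 receptor, did not pass (edgeR adjusted p = 0.674): it had 111 and 21.8 CPM in the Th1-gated cells, against 85.7 and 33.8 CPM in the other CD4 cells, so the 2 libraries went opposite ways. Without the block 7 genes were called, and 7 after thinning.

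All 20 tested cell cycle genes were higher in the Th1-gated cells, with a median log2 fold change of 1.21. Rrm2, a subunit of ribonucleotide reductase, had 245 and 285 CPM in the Th1-gated cells, against 63.1 and 40.9 CPM in the other CD4 cells (edgeR log2 fold change 2.20 ± 0.17 (SE), adjusted p = 5.02e-08). Mki67, the proliferation antigen Ki-67, had 101 and 71.5 CPM in the Th1-gated cells, against 47.4 and 21.9 CPM in the other CD4 cells (edgeR log2 fold change 1.23 ± 0.17 (SE), adjusted p = 3.98e-05), and Mcm5, a part of the replicative helicase, had 81.4 and 136 CPM in the Th1-gated cells, against 36.2 and 22.4 CPM in the other CD4 cells (log2 fold change 1.63, edgeR adjusted p = 4.25e-05). After thinning, 9.67% and 7.64% of Th1-gated cells had an Mki67 UMI, against 3.91% and 4.13% of other CD4 cells. The gated cells were also the deeper ones, as the medians above show, and the part of depth in these calls was not tested. Without cells with an Mki67 or Top2a UMI, the counts over all genes were 523 higher and 356 lower. Of the cell cycle genes 11 were called without the block, and 10 after thinning.

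Of 8 genes of the helper lineage 1 was higher and 4 were lower. Zbtb7b, which encodes the helper lineage factor Thpok, had 34.7 and 59.1 CPM in the Th1-gated cells, against 42.5 and 54.8 CPM in the other CD4 cells (edgeR log2 fold change -0.12 ± 0.18 (SE), adjusted p = 0.727), and the groups overlapped. Cd40lg, the ligand by which helper cells license B cells and dendritic cells, had 100.1 and 77.7 CPM in the Th1-gated cells, against 91.5 and 83.3 CPM in the other CD4 cells (edgeR adjusted p = 0.968). Gata3, a factor of helper and Th2 development, was the 1 that rose, with 105 and 87.1 CPM in the Th1-gated cells, against 51.5 and 46.7 CPM in the other CD4 cells (edgeR log2 fold change 0.95 ± 0.13 (SE), adjusted p = 5.02e-05). Tnfrsf4, Cd28, Icos and Tnfsf8 were the 4 that fell, and Tnfrsf4, which encodes OX40, had 51.4 and 173 CPM in the Th1-gated cells, against 118 and 236 CPM in the other CD4 cells (log2 fold change -0.79, edgeR adjusted p = 0.00137). Among 10 inhibitory receptors Havcr2 (TIM-3) and Entpd1 (CD39) rose and Pdcd1, Btla and Tigit fell. Havcr2 had 12 and 33.2 CPM in the Th1-gated cells, against 0.882 and 1.43 CPM in the other CD4 cells (log2 fold change 4.18, edgeR adjusted p = 2.75e-06). Without the block 1 helper lineage gene was called higher and 1 lower, and after thinning none and 1. For the inhibitory receptors the counts were 2 and 1 without the block, and none and 1 after thinning.

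Of 16 glycolysis genes 4 rose (Gapdh, Ldha, Eno1 and Slc2a3) and Pfkl fell. Of 15 interferon response genes Gbp2 rose and Ifi27l2a fell, and of 12 early T cell receptor response genes Egr1, Egr2 and Zfp36 fell. Over all tested genes 9.29% were higher and 7.34% lower, so 1 call among 15 or 16 genes was near those shares. Without the block 1 glycolysis gene was called higher and none lower, and after thinning none and 1. No interferon response gene was called in either alternative, and of the early response genes 3 were lower without the block and none after thinning. Slc2a3, the glucose transporter GLUT3, had 22.7 and 34.2 CPM in the Th1-gated cells, against 7.58 and 10.5 CPM in the other CD4 cells (log2 fold change 1.62, edgeR adjusted p = 9.19e-05). Egr2, a factor induced by receptor signals, had 6.01 and 3.11 CPM in the Th1-gated cells, against 21.3 and 24.8 CPM in the other CD4 cells (log2 fold change -2.23, edgeR adjusted p = 3.35e-04). Of 7 tested markers of regulatory T cells none rose and Foxp3, Ikzf2 and Nrp1 fell. Foxp3 had 1.34 and 1.04 CPM in the Th1-gated cells, against 10.8 and 5.24 CPM in the other CD4 cells (log2 fold change -2.82, edgeR adjusted p = 0.00475). Zbtb16, the factor of natural killer T cells, was not tested and had 6.68 and 1.04 CPM in the Th1-gated cells, against 0.353 and 0 CPM in the other CD4 cells. Il5, Il13 and Il17a, products of other helper subsets, had 0 UMIs in both CD4 classes. The natural killer markers Ncr1 and Klra8 were at 0 in the Th1-gated cells. Only 3 of 5 markers of natural killer cells, 1 of 8 of innate-like T cells and 3 of 10 of Th2 and Th17 cells were tested. None of these passed in either direction, and the remaining markers were not tested.

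Red cell transcripts stood apart in 1 library. The 4 globin genes summed to 18.7 and 13.5 CPM in the Th1-gated cells, against 302 and 5.24 CPM in the other CD4 cells. All 4 were called lower. In replicate 2 alone Hba-a1, Hba-a2 and Hbb-bs were higher in the Th1-gated cells, on 3, 2 and 7 UMIs. Hbb-bt had 1 UMI there, against 2 in the other CD4 cells, too few to give a direction. B cell markers summed to 248 and 29 CPM in the Th1-gated cells and 323 and 26.7 CPM in the other CD4 cells, and myeloid markers to 202 and 228 CPM in the Th1-gated cells and 248 and 169 CPM in the other CD4 cells. Of 6 B cell markers H2-Aa fell, and of 7 tested myeloid markers Itgam rose and Lyz2, Tyrobp, Cd68 and Lst1 fell. In replicate 2 alone H2-Aa, Lyz2 and Tyrobp were higher in the Th1-gated cells, and 2 of the 7 myeloid markers, Cd68 and Lst1, were lower in both libraries. Without cells that had a B cell or myeloid marker UMI, 944 genes were higher and 713 lower.

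**Figure D3:**
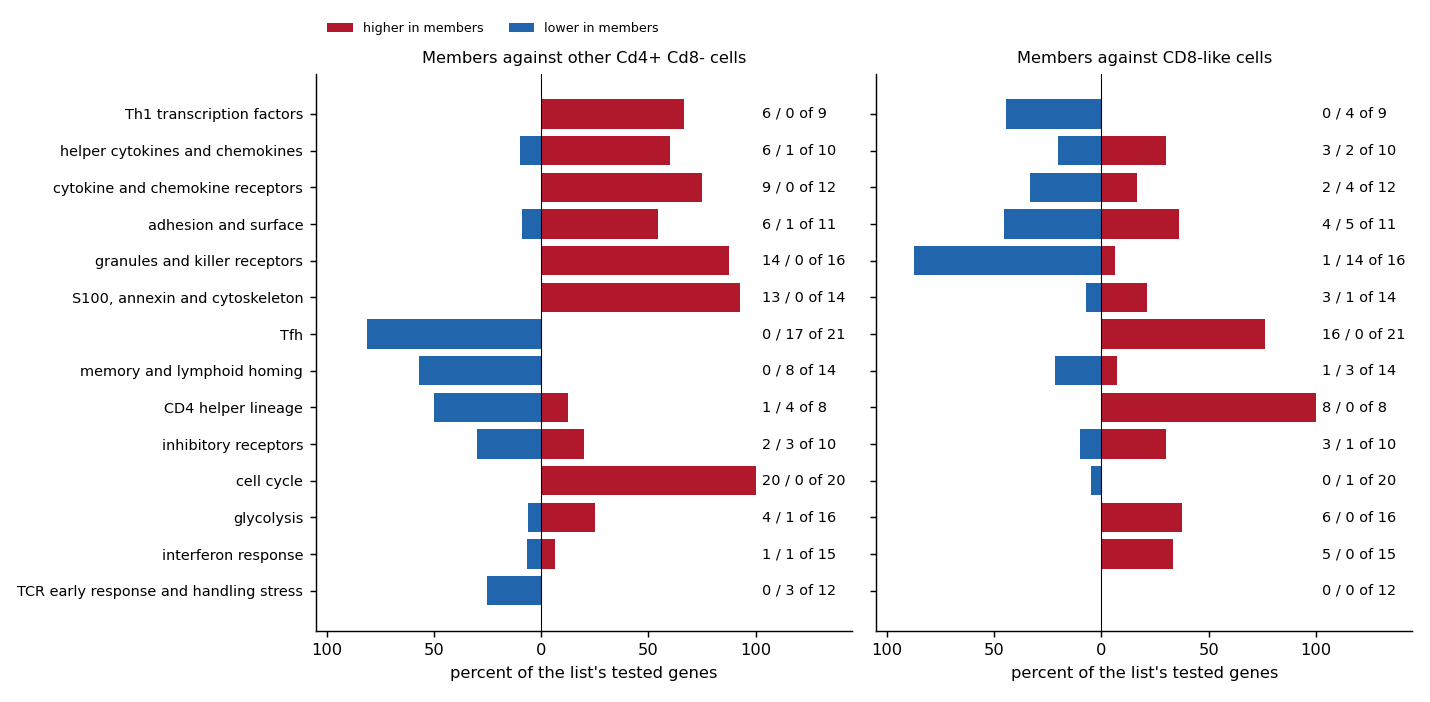
Percent of each list's tested genes that were higher (red, to the right) or lower (blue, to the left) in Th1-gated cells at an edgeR adjusted p under 0.05, against other CD4 cells (left panel) and CD8-like cells (right panel). The counts beside the bars give higher / lower of tested. Granule and killer genes were 14 higher against other CD4 cells and 14 lower against CD8-like cells, Tfh genes 17 lower and 16 higher, and cell cycle genes 20 higher and 1 lower.

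Against the Cxcr5+ Cxcr6- cells, the CD4 cells whose gate mirrors the Th1 gate, 659 of 8811 genes were higher (7.48%) and 559 lower (6.34%). These cells are part of the other CD4 cells and the Th1-gated cells are shared, so the 2 comparisons are not independent. With no replicate block the counts were 234 and 150, and with the gate applied after thinning 129 and 90. Gzmb had 473 and 959.6 CPM in the Th1-gated cells, against 7.98 and 41.9 CPM in the Cxcr5+ Cxcr6- cells (edgeR log2 fold change 5.12 ± 0.21 (SE), adjusted p = 2.68e-10). Ccr2 stood at 156 and 92.2 CPM in the Th1-gated cells, against 4.99 and 1.40 CPM in the Cxcr5+ Cxcr6- cells (edgeR log2 fold change 5.05 ± 0.27 (SE), adjusted p = 6.08e-09). Klrg1 had 65.4 and 24.9 CPM in the Th1-gated cells, against 3.99 and 0 CPM in the Cxcr5+ Cxcr6- cells (edgeR log2 fold change 4.10 ± 0.44 (SE), adjusted p = 1.06e-05). Cx3cr1 had 91 UMIs in the Th1-gated cells and 3 in the Cxcr5+ Cxcr6- cells, a ratio of 33.5 (95% counting interval 11.1 to 165). Il7r, which did not separate the Th1-gated cells from all other CD4 cells, had 111 and 21.8 CPM in the Th1-gated cells, against 19.5 and 14 CPM in the Cxcr5+ Cxcr6- cells (edgeR log2 fold change 2.12 ± 0.32 (SE), adjusted p = 3.34e-04), and replicate 2 lay close in both classes. The lower genes were led by Padi4, which converts arginine to citrulline (4.01 and 2.07 CPM in the Th1-gated cells, against 55.9 and 61.5 CPM in the Cxcr5+ Cxcr6- cells; log2 fold change -4.21), Sostdc1 (-3.96) and Fam43a (-3.25). Il21 had 4.01 and 6.22 CPM in the Th1-gated cells, against 32.4 and 30.7 CPM in the Cxcr5+ Cxcr6- cells (edgeR log2 fold change -2.74 ± 0.43 (SE), adjusted p = 4.48e-04). Tbx21 had 72.1 and 79.8 CPM in the Th1-gated cells, against 19.5 and 19.6 CPM in the Cxcr5+ Cxcr6- cells (edgeR log2 fold change 1.92 ± 0.19 (SE), adjusted p = 4.42e-06). Of 9 Th1 transcription factors 6 were higher, as were 10 of 12 receptors, 14 of 16 granule genes and 18 of 20 cell cycle genes, while 16 of 20 tested Tfh genes were lower. Without the block 5 transcription factors, 7 receptors, 12 granule genes and 5 cell cycle genes were called higher and 13 Tfh genes lower. After thinning these counts were 4, 3, 13, 7 and 9.

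Against CD8-like cells, 337 of 9871 genes were higher (3.41%) and 308 lower (3.12%). Without the block these counts were 52 and 47, and after thinning 119 and 109. Cd40lg led the higher genes, with 100.1 and 77.7 CPM in the Th1-gated cells, against 6.87 and 3.19 CPM in CD8-like cells (edgeR log2 fold change 3.92 ± 0.19 (SE), adjusted p = 7.17e-11), and the groups did not overlap. Zbtb7b had 34.7 and 59.1 CPM in the Th1-gated cells, against 11.4 and 12.6 CPM in CD8-like cells (edgeR log2 fold change 1.78 ± 0.19 (SE), adjusted p = 4.65e-06). All 8 tested helper lineage genes were higher, as were 16 of 21 Tfh genes. Maf had 154 and 149 CPM in the Th1-gated cells, against 15 and 12.4 CPM in CD8-like cells (edgeR log2 fold change 3.37 ± 0.15 (SE), adjusted p = 1.93e-11), and Tnfrsf4 had 51.4 and 173 CPM in the Th1-gated cells, against 9.19 and 15 CPM in CD8-like cells (edgeR log2 fold change 2.94 ± 0.19 (SE), adjusted p = 2.94e-09). Interferon-induced genes were among the largest: Ifi204 had 32.7 and 37.3 CPM in the Th1-gated cells, against 2.38 and 1.75 CPM in CD8-like cells (log2 fold change 3.85), Ifitm2 had 28 and 64.3 CPM in the Th1-gated cells, against 4.10 and 2.87 CPM in CD8-like cells (log2 fold change 3.41) and Ifitm3 52.1 and 91.2 CPM in the Th1-gated cells, against 10.6 and 6.86 CPM in CD8-like cells (log2 fold change 2.79). Of the 15 interferon response genes 5 were higher (Isg15, Isg20, Ifit1, Oasl2 and Ifi27l2a). Without the block 1 interferon response gene was called higher, and 3 after thinning. Of 16 glycolysis genes 6 were higher and none was lower, and Ldha, lactate dehydrogenase A, had 974 and 1368 CPM in the Th1-gated cells, against 637 and 883 CPM in CD8-like cells (log2 fold change 0.52, edgeR adjusted p = 7.99e-05).

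Killer genes were lower than in CD8-like cells. Of 16 granule and killer genes 14 fell, Srgn rose and Serpinb6b did not pass. Gzma had 194 and 72.5 CPM in the Th1-gated cells, against 6153 and 3941 CPM in CD8-like cells (edgeR log2 fold change -5.39 ± 0.15 (SE), adjusted p = 5.78e-15). Gzmb had 473 and 959.6 CPM in the Th1-gated cells, against 1241 and 2146 CPM in CD8-like cells (edgeR log2 fold change -1.38 ± 0.10 (SE), adjusted p = 2.50e-08), so it lay between the 2 reference classes in each library. Klrd1, the receptor chain CD94, had 100.1 and 43.5 CPM in the Th1-gated cells, against 595 and 489.9 CPM in CD8-like cells (edgeR log2 fold change -2.99 ± 0.14 (SE), adjusted p = 3.59e-11). Klra7, a Ly49 receptor, had 1 UMI in the Th1-gated cells and 720 in CD8-like cells, a ratio of 72.9 of CD8-like over Th1-gated cells (95% counting interval 13 to 2884). Zeb2 had 18 and 12.4 CPM in the Th1-gated cells, against 152 and 126 CPM in CD8-like cells (edgeR log2 fold change -3.28 ± 0.22 (SE), adjusted p = 4.79e-09), and Eomes, Tbx21 and Runx3 were also lower (log2 fold change -2.82, -0.66 and -0.89). Tbx21 passed neither without the block nor after thinning (edgeR adjusted p = 0.224 after thinning). Ccl5 had 5957 and 3635 CPM in the Th1-gated cells, against 28310.4 and 15777 CPM in CD8-like cells (edgeR log2 fold change -2.28 ± 0.067 (SE), adjusted p = 2.12e-14), and it did not pass without the block (edgeR adjusted p = 0.0752). Without the block 7 granule and killer genes were called lower and 7 helper lineage and 9 Tfh genes higher, and no glycolysis gene was called. After thinning 13 granule and killer genes were lower and 8 helper lineage, 13 Tfh and 2 glycolysis genes higher.

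Other lists were split or held few calls against CD8-like cells. Of 10 cytokines and chemokines 3 were higher and 2 lower, of 12 receptors 2 and 4, and of 11 adhesion genes 4 and 5. Of 14 memory and homing genes 1 was higher and 3 lower, and of 10 inhibitory receptors 3 and 1. Without the block no cytokine, receptor or adhesion gene was called, 1 memory gene was lower and 1 inhibitory receptor higher. After thinning the counts of these lists were 2 and 2, 1 and 1, 3 and 1, 2 and 2, and 1 and none. Ifng was higher in Th1-gated cells (edgeR log2 fold change 1.34 ± 0.18 (SE), adjusted p = 6.43e-05), together with Il21 and Tnf, which had under 20 CPM in both classes. Ifng did not pass without the block (edgeR adjusted p = 0.207). In wells 1, 2 and 3 of replicate 1 Ifng stood at 19.1, 50.0 and 76.3 CPM in the Th1-gated cells. CD8-like cells had 28.2, 28.7 and 30.4 CPM, so well 1 went the other way. Without the cell with most Ifng UMIs, the gated cells of replicate 1 had 34.7 CPM, near these CD8-like values, and those of replicate 2 had 94.3 CPM. Id2 had 1429 and 1075 CPM in the Th1-gated cells, against 1032 and 975 CPM in CD8-like cells (log2 fold change 0.22, edgeR adjusted p = 0.147), and Bhlhe40 did not pass either (edgeR adjusted p = 0.165). Of 14 S100, annexin and cytoskeletal genes 3 were higher and 1 lower, and of 20 cell cycle genes none was higher and H2afz was lower. No gene of either list was called without the block. After thinning the counts were 2 and 1 for the first list and none and 3 for the cell cycle genes. These lists' medians were -0.02 and -0.07 on the log2 scale, against -0.0031 over all tested genes. Markers of other cells also differed: 5 of 7 regulatory T cell markers and 5 of 6 B cell markers were higher than in CD8-like cells, 3 of 7 myeloid markers were lower, and all 4 globin genes were lower. The regulatory T cell markers summed to 264 and 424 CPM in the Th1-gated cells, against 143 and 192 CPM in CD8-like cells, and the B cell markers to 248 and 29 CPM, against 80.8 and 12.8 CPM. Without cells that had a B cell or myeloid marker UMI, the B cell marker Cd74 was no longer higher, and the part of these cells in the other results was not tested. A p that misses the threshold does not show equal levels: the standard errors of Id2 and Bhlhe40 were 0.081 and 0.15.

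The Th1-gated cells were not uniform. After thinning, 29% and 59.7% of them had a Gzmb UMI, against 3.20% and 6.98% of the other CD4 cells and 69.7% and 79.1% of CD8-like cells. As a level of free RNA, 4.55% of 22 B cells of replicate 1 had a Gzmb UMI and 13.6% a Ly6c2 UMI after thinning. Ly6c2 was found in 42.8% and 59.7% of Th1-gated cells, 15.4% and 24.3% of other CD4 cells and 88.5% and 90.0% of CD8-like cells. For Il7r the shares were 19% and 4.86% in Th1-gated cells, against 13.2% and 5.94% in the other CD4 cells. Ccr2 was found in 27.5% and 22.9% of Th1-gated cells, against 1.69% and 0.775% of the other CD4 cells. Tcf7 was present in 21.6% and 11.1% of Th1-gated cells, against 54.9% and 64.6% of the other CD4 cells. Slamf6 was present in 30.5% and 27.1% of Th1-gated cells, against 64.1% and 67.4% of the other CD4 cells. After thinning, cells without a Tcf7 UMI were most of the Th1-gated cells in both libraries, and so were those without a Slamf6 UMI. Before thinning, a Slamf6 UMI was found in 50.9% and 55.7% of Th1-gated cells with a Gzmb UMI. It was found in 57.3% and 65.9% of those without, so for Slamf6 the majority depended on thinning. Unthinned, 38.3% and 72.1% of Th1-gated cells had a Gzmb UMI and 26.4% and 34.7% a Tbx21 UMI.

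**Figure D4:**
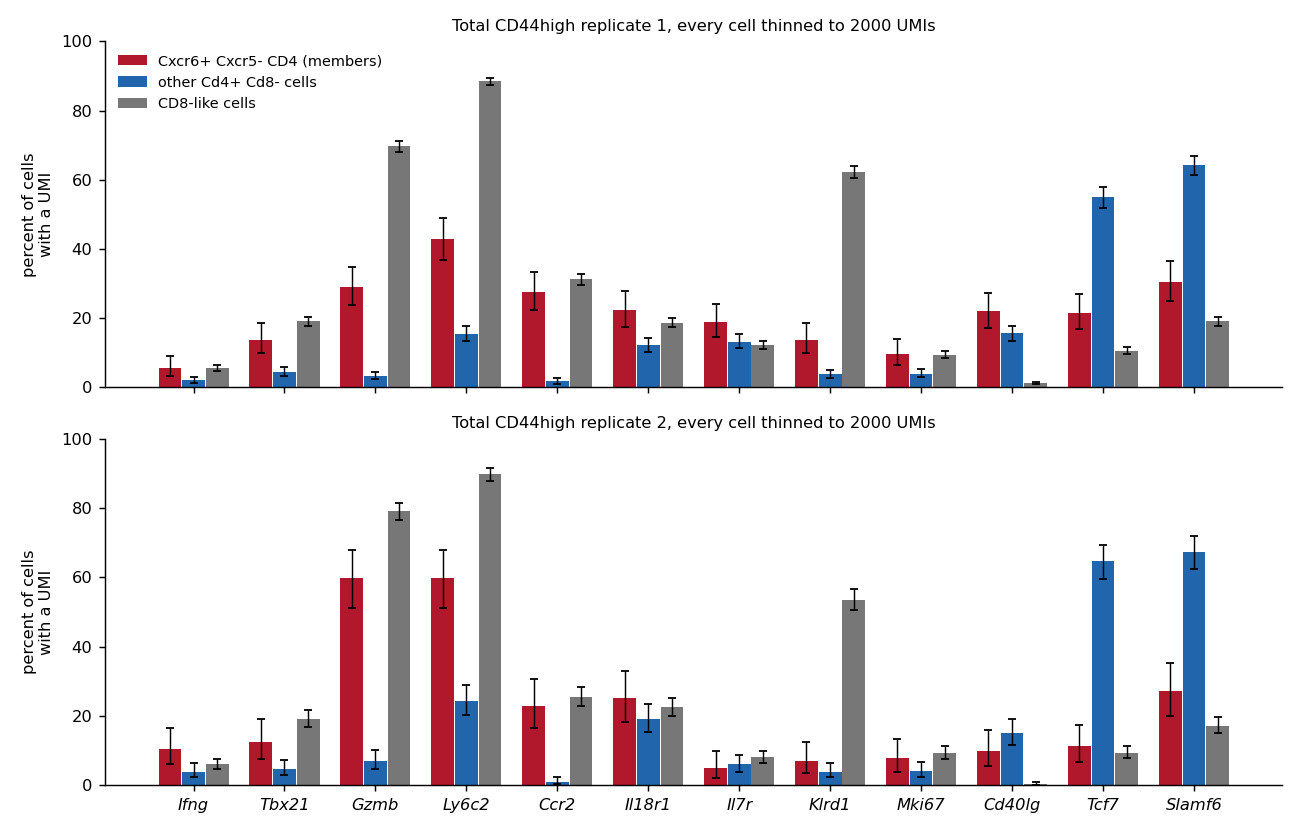
Percent of cells with a UMI of 12 genes after thinning to 2000 UMIs, in Th1-gated cells (members, red), other CD4 cells (blue) and CD8-like cells (grey), 1 panel per replicate. Bars start at 0 and whiskers are exact 95% binomial intervals, which cover counting error only. Gzmb was found in 29% and 59.7% of Th1-gated cells, between the other CD4 cells and CD8-like cells in both libraries.

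Split by Gzmb, the Th1-gated cells differed in the same direction in both libraries for several genes. The 106 cells with a Gzmb UMI of each library had more UMIs (medians 6142 and 6579) than the 171 and 41 without (3907 and 5214), and levels are therefore given in CPM. Il7r stood at 33.5 and 9.53 CPM in cells with Gzmb, against 189 and 60.8 CPM in those without. Tcf7 stood at 26.8 and 51.7 CPM, against 246 and 169 CPM, and Id3 at 13.4 and 5.44 CPM, against 119.8 and 73.8 CPM. These memory-associated genes were thus lower in the cells with Gzmb. Ly6c2 stood at 743 and 1069 CPM with Gzmb, against 345 and 612 CPM without, and Rrm2 at 408 and 325 CPM, against 82.5 and 156 CPM. Ccr2, Zbtb7b and Tbx21 varied less: Ccr2 was 151 and 92.6 CPM with Gzmb and 161 and 91.2 CPM without. The split is by a measured gene of the same cells, so these values are a description with no test. After thinning, an Il7r UMI was found in 7.69% and 1.16% of the cells with a Gzmb UMI, against 23.6% and 10.3% of the rest.

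Just inside and just outside the gate, cells with 1 Cxcr6 UMI (92 and 46) and the Cxcr5- cells with none (799 and 269) can be set side by side with cells with 2 (48 and 20) and 3 or more (137 and 81), again with no test. Ccl5 stood at 1877, 4999.9, 6098 and 6515 CPM with 0, 1, 2 and 3 or more Cxcr6 UMIs in replicate 1 and at 828, 2543, 2596 and 4390.4 CPM in replicate 2. Gzmb stood at 56.4, 391, 503 and 515 CPM in replicate 1 and 121, 554, 616 and 1231 CPM in replicate 2. Tcf7 stood at 412, 207, 213 and 65.2 CPM in replicate 1 and 539, 127, 131 and 45.8 CPM in replicate 2. The step from 0 to 1 UMI went the way of the whole contrast for these 3 genes in both libraries. Il7r was 134 and 46.5 CPM with none and 90.4 and 10.6 CPM with 3 or more, lowest at the high end in both libraries. With 2 or more Cxcr6 UMIs asked for, the share of gated cells was 12.4% and 17.9%, and with the gate after thinning 14.6% and 18.2%.

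**Figure D5:**
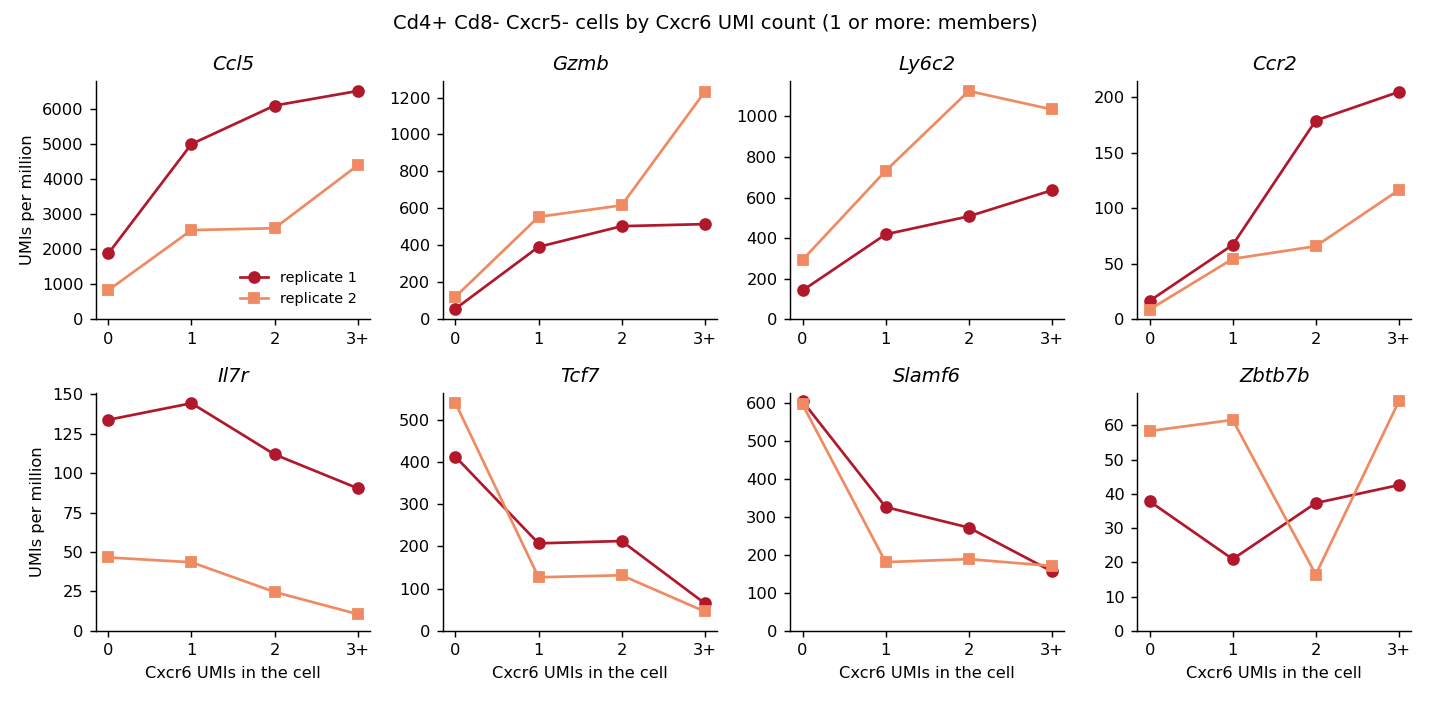
Level in CPM of 8 genes in Cd4+ Cd8- Cxcr5- cells by the number of Cxcr6 UMIs in the cell, for replicate 1 (circles) and replicate 2 (squares). Cells with 0 are outside the gate and all others inside it. Ccl5, Gzmb, Ly6c2 and Ccr2 are lowest at 0 UMIs and Slamf6 and Tcf7 highest, while Zbtb7b shows no order.

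The same gate in the tetramer-sorted libraries gave 15.6% of Cd4+ Cd8- cells in the wild type and 13.9% in the Ox40-Cre Thpok wild type library. With the gate applied after thinning these shares were 9.03% and 8.60%. Of the 917 genes higher in the Th1-gated cells of the total libraries, 867 (94.5%) were higher in the gated cells of both tetramer libraries too, against 34.0% of all 9871 tested genes. For the 725 lower genes it was 663 (91.4%), against 36.9%. The gate was the same in each case, so this describes how the gate behaves in other captures.

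Set directly against those tetramer-sorted cells, 3 of 7829 genes (0.0383%) passed as higher in the Th1-gated cells of the total libraries and 41 (0.524%) as lower, and the sort, the capture and the library cannot be told apart in this comparison. At an unadjusted p under 0.05 there were 334 higher and 404 lower. Nr4a1, an immediate target of the T cell receptor, had 4.01 and 12.4 CPM in the total libraries, against 279 and 327 CPM in the tetramer libraries (edgeR log2 fold change -5.31 ± 0.37 (SE), adjusted p = 0.00636). Areg, the growth factor amphiregulin, had 0 UMIs in the total libraries and 105 in the tetramer libraries, at least 29.0-fold lower by a floor of 3 counts over the group. Cxcl10, an interferon-induced chemokine, had 3 UMIs in the total libraries and 90 in the tetramer libraries, a ratio of 24.9 of tetramer-sorted over total (95% counting interval 8.25 to 123). Fosb, Tnfaip3 and Dusp1, genes induced early after a stimulus, had log2 fold changes of -5.25, -3.99 and -3.97. Of 11 tested genes of the early response and handling list 6 were lower. Bhlhe40 was lower too, with 75.4 and 116 CPM in the total libraries, against 670.3 and 479 CPM in the tetramer libraries (edgeR log2 fold change -2.59 ± 0.24 (SE), adjusted p = 0.00954). The higher genes were Ifitm1, Txnip and AI467606, and Txnip, an inhibitor of thioredoxin, had 110.1 and 87.1 CPM in the total libraries, against 28.5 and 24.9 CPM in the tetramer libraries (edgeR log2 fold change 1.90 ± 0.24 (SE), adjusted p = 0.0276). Tbx21, Ccl5 and Ifng did not pass (edgeR adjusted p = 0.314, 0.481 and 0.218), and Ifng had 56.1 and 142 CPM in the total libraries, against 252 and 394 CPM in the tetramer libraries. Without total replicate 1 no gene was called in either direction, and without the Ox40-Cre library 72 were higher and 94 lower.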

How the data were processed

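Spleen T cells were profiled with the 10x Single Cell 3′ v2 kit, per the labels' protocols. The deposited matrices hold UMI counts per gene and barcode (27998 genes), made with bcl2fastq 2.17 and Cell Ranger against mm10, per the submitters' processing notes. For Cell Ranger no version is given in the sources used here. Barcodes were kept from 500 genes upward when mitochondrial UMIs made up 10% or less. No doublet caller was run; the 5% of cells with most UMIs per well were left out as an alternative. The Th1 gate, the gene lists and the tests were chosen with earlier results of these data known.

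For each class of cells in a library the UMI counts were added up, and these sums entered a quasi-likelihood test in edgeR 4.0.16 (TMM factors, low-count filter, library as a block between classes of the same capture, none against the tetramer libraries) in R 4.3.3. Genes were called at a Benjamini-Hochberg adjusted p under 0.05 over all tested genes. Genes used by the gate were left out of the calls. The residual degrees of freedom were 2 against the other CD4 cells and CD8-like cells, 3 against the Cxcr5+ Cxcr6- cells and 2 against the tetramer libraries. Data were also simulated with the same columns and UMI sums. Apart from the changed genes, all classes and libraries had the same profile. Every gene had the same relative spread, and low-count genes were not among those changed. In these data, 67% of 100 genes changed 2-fold and 94% of 100 changed 4-fold were called against the other CD4 cells. So were 12 unchanged genes of 9577 in all. Against the tetramer libraries 27% and 94% were called. The real libraries and classes do differ, so these rates may not hold for them. CPM are not TMM-scaled, and fold changes are. Shares of cells with a UMI of a gene were taken after thinning each cell to 2000 UMIs, in classes set by the gate before thinning. Thinning left out 8 and 3 Th1-gated cells, 91 and 29 other CD4 cells and 103 and 30 CD8-like cells. Intervals and floors (3 counts) cover counting error only.

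Up to 12 genes per comparison and direction were named by the largest fold change among called genes with at least 20 CPM in the higher class and no overlap, with 2 to 4 per list. Other genes were chosen after their values were seen, and some genes that met the rule are not reported here. Promoter sequences are from RefSeq and gene coordinates from GENCODE, both on GRCm38, the build called mm10. Alternatives were DESeq2 1.42.0, its size factors, no low-count filter, no replicate block, thinning before the gate, stricter gates, and leaving out cells or libraries.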

Additional observations from a re-analysis of the deposited data

Results flagged for a closer look

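Among the genes named by the rule for the comparison with the other CD4 cells, 2 went one way in both total libraries and the other way in both tetramer libraries, and these differences were not tested. Tnfrsf4, which encodes the costimulatory receptor OX40, had log2 ratios of Th1-gated over other CD4 cells of -1.19 and -0.44 in the total libraries, against 0.13 and 0.24 in the tetramer libraries, a difference of the means of -0.999. Cd74, the invariant chain of class II molecules and a marker of B cells, had -0.35 and -0.75 in the total libraries, against 0.080 and 0.15 in the tetramer libraries, a difference of -0.665. The tetramer ratios of Cd74 rested on 11 UMIs in gated cells against 51 in the others (wild type), and on 7 against 32 (Ox40-Cre). Counts this small do not fix the sign of such small ratios. The part of B cell RNA in the Cd74 values was not tested.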

How the results depend on the processing

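Counts of called genes depended on the processing more than the direction of single genes did. Against the other CD4 cells (917 higher and 725 lower), 552 and 300 genes were called with DESeq2, 172 and 129 with cells thinned to 2000 UMIs before the gate, 523 and 356 without cells with an Mki67 or Top2a UMI, and 265 and 119 with no replicate block. Against CD8-like cells (337 and 308), 169 and 127 were called with DESeq2, 119 and 109 after thinning and 52 and 47 with no replicate block. The lower genes there came to 467 with no filter on low counts and 539 with a fit of these 2 classes alone. Against the Cxcr5+ Cxcr6- cells (659 and 559), 415 and 290 were called with DESeq2, 129 and 90 after thinning, 398 and 308 without cells with an Mki67 or Top2a UMI, and 234 and 150 with no replicate block. Against the tetramer-sorted cells (3 and 41), 7 and 62 were called with DESeq2, 138 and 205 with no filter on low counts, 0 and 11 after thinning, and 0 and 19 with 2 or more Cd4 UMIs. Leaving out 1 library gave between 0 and 72 higher and between 0 and 94 lower genes there, with 0 and 0 without total replicate 1. The thinned sums hold fewer UMIs by construction. The cause of the other changes was not tested.

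The library block is the pairing of classes from 1 capture, and the values above without it are for the same sums. No paired analysis was possible against the tetramer-sorted cells because those libraries share no capture with the total libraries.

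Against the other CD4 cells, the log2 fold changes without replicate 2 and without replicate 1 had opposite signs for H2-Aa -1.005 and 0.97, Lyz2 -3.12 and 1.39, Hba-a1 -4.30 and 1.29, Hba-a2 -3.66 and 0.28, Hbb-bs -3.98 and 1.18. Against CD8-like cells, the log2 fold changes without replicate 2 and without replicate 1 had opposite signs for Hba-a1 -4.42 and 0.020, Hba-a2 -3.70 and 0.58, Hbb-bs -3.77 and 0.70. Against the Cxcr5+ Cxcr6- cells, the log2 fold changes without replicate 2 and without replicate 1 had opposite signs for H2-Aa -1.20 and 0.77, Lyz2 -4.03 and 1.33, Hba-a1 -5.55 and 1.19, Hbb-bs -5.30 and 0.87, Hbb-bt -4.30 and 0.52. Each is a single difference within 1 library, with no test. After thinning Hbb-bs came to 0.51 against the other CD4 cells, where it was called lower, and Il27ra and Cd74 to -0.41 each against CD8-like cells, where they were called higher. Without cells with a B cell or myeloid marker UMI, Cd74 came to -0.14 against CD8-like cells and H2-Aa to 1.17 against the Cxcr5+ Cxcr6- cells, where it was called lower. Without the 5% of cells with most UMIs, Lyz2 came to 0.63 against the Cxcr5+ Cxcr6- cells, where it was called lower.

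The share of Th1-gated cells was 14.6% and 18.2% after thinning and 12.4% and 17.9% with 2 or more Cxcr6 UMIs. It was 20.7% in capture well 1 of replicate 1 alone. The alternatives on this share that leave out cells or set 2 or more Cd4 UMIs were chosen after seeing the data. Over single genes and all alternatives, with the values above included, 1041 values kept direction and, where tested, the call against the other CD4 cells. A further 76 lost the call, 9 gained it and 6 turned. Fits of 1 library alone have no test, so their values count here by direction only. Against CD8-like cells the counts were 991, 91, 4 and 6, and against the Cxcr5+ Cxcr6- cells 1010, 87, 1 and 7.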
